A study of Drosophila melanogaster with 3 samples.

Results

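The vacuolar H+-ATPase (V-ATPase) is a rotary proton pump that acidifies lysosomes, endosomes, secretory vesicles and, in some epithelia, the extracellular space. Its soluble V1 sector hydrolyses ATP, and its membrane-embedded Vo sector carries protons through a ring of c subunits. In Drosophila many subunits are encoded by several paralogous genes, of which usually 1 is used in most cells and the others in particular tissues. V-ATPase and lysosomal genes of flies and mammals are known targets of the Mitf/TFE family of basic helix-loop-helix factors, which bind a palindromic E-box with the core CACGTG. Hey is a basic helix-loop-helix-Orange factor, mostly known as a repressor and as a target of Notch signalling, and belongs to a family that binds the same class B core CACGTG and the class C core CACGCG. The genes described here were all those of the annotation whose symbol starts with Vha, 33 of 18164 genes. Binding of Hey near their transcription start sites (TSSs) was read from deposited ChIP-seq regions.

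The series held 1 group, Hey-GFP embryo, of 3 biological replicates. Each was made from embryos of both sexes aged 6 to 24 h, from a transgenic line that carries Hey with GFP at its C terminus. Neither a second genotype nor a treatment was included, so the 33 genes were set beside all annotated genes of the same lists. The age was taken from the source name, because the label meant for it could not be read. The libraries were read as ChIP of Hey, as their assay title and antibody entry have it, although a free-text line calls them input control. The chromatin came from whole embryos, so binding in few cells and weak binding in many cells cannot be told apart. The read depth of the libraries is not known here.

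Some of the sites named in the results are shown as 30 bases of the Release 6 genome sequence of RefSeq (dm6 coordinates). They are written 5′ to 3′ on the strand of the gene with the cores in capitals. The class B cores near the summits of Vha44 and Vha16-1 are described below but not shown. CGCGTG and GTGTGACC are the cores CACGCG and GGTCACAC read from the other strand. The first 3 show cores close to summits, with both cores of Vha55 in its 5′ UTR, a class B core of VhaAC45RP between genes, and a class C core in an intron of Vha100-2 that is also 5′ UTR of Vti1b. They lie at chr3R:12627767-12627796, chr3R:30166575-30166604 and chr3R:18397337-18397366, each on the minus strand.
Vha55: aCGCGTGacgggtcatgtgacggCACGTGa
VhaAC45RP: ccgttacagaaaCACGTGgcactcgaattg
Vha100-2: tcacccacaactCGCGTGtgaaagccaagg
For Vha68-2, on the plus strand, an element beside the summit is shown at chr2L:12974148-12974177, and a class B core inside an intron, away from the summit, at chr2L:12975292-12975321. The capitals of the first mark GGTCACAC, part of a core promoter element known as motif 1.
Vha68-2 at the summit: tctttaagccaGTGTGACCccacccgctct
Vha68-2 in the intron: tcaaagctctgtCACGTGaaacgaaagctc
A pair of class B cores without a nearby pooled summit lie in coding exons on the plus strand, that of VhaM9.7-d at chr3R:16975215-16975244 and that of Vha14-2 at chr3R:6122763-6122792.
VhaM9.7-d: gaaatggataagCACGTGgcattcatggtc
Vha14-2: atttacccaggaCACGTGtgtcggctttct

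The lists of the 3 replicates and the pooled list had 30000 regions each, ranked by the authors' signal value, which is used here only to order regions within a list. By the submitters' file names these 4 lists hold regions and background together, and q-values above 0.05 were given to 49%, 85.3% and 73.1% of the regions of replicates 1, 2 and 3 and to 68% of the pooled ones. A low rank in these lists is therefore no evidence of binding. The IDR list, the regions the authors kept as reproducible, held 3319 regions and was identical to the 3319 highest of the pooled list. The 3319 highest regions of each replicate were therefore taken as its high regions. Summits within 100 bp of each other were shared by 45.8% of the high regions of replicates 1 and 2, by 45.8% of those of replicates 1 and 3, and by 58.6% of those of replicates 2 and 3. Replicate 1 stood apart from the other replicates, and results that rest on it are named below. A gene was counted as having a region when a summit lay within 1000 bp of any of its TSSs.

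Hey-GFP regions of the IDR list lay at 7 of the 33 Vha genes (21.2%, 95% Wilson interval 10.7 to 37.8%), against 10.7% of all 18164 genes and 11.4% of the 13945 protein-coding genes. All 33 Vha genes are protein-coding. The share in Vha genes was higher, but its interval reached down to the share of all genes. The 7 genes were Vha55, Vha16-1, Vha68-2, Vha36-1, Vha44, Vha14-1 and Vha100-2. The series has 1 group, so no test was made, and each count is read against the share of all genes. Intervals cover counting error only, and genes can share a region.

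The 7 genes all belonged to the 13 genes taken as the broadly expressed one for each subunit (7 of 13, 53.8%, interval 29.1 to 76.8%), and none to the other 20 Vha genes (0 of 20, which allows a share of up to 16.1% by the Wilson interval). The 13 were chosen by general knowledge of the family, not from expression measured here, and the difference was not tested. The choice was also made with earlier results of these data known, so the split is not independent of them. The 20 other genes are additional isoforms and accessory proteins. Among all 30000 pooled regions, background included, 18 of 33 Vha genes had one (54.5%), against 39.3% of all genes, with 9 of the 13 broadly expressed genes (69.2%) and 9 of the 20 others (45%). With pooled regions of a q-value of 0.05 or lower, 13 of 33 Vha genes had one (39.4%), against 22.0% of all genes. These were 8 of the 13 broadly expressed genes (61.5%) and 5 of the 20 others (25.0%). When the distance limit was 2000 bp instead of 1000 bp, 1 of the 20 others, Vha100-5, also had an IDR region, 1956 bp from its TSS at rank 268. The count was then 8 of 33 Vha genes (24.2%), against 14.9% of all genes.

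**Figure D1:**
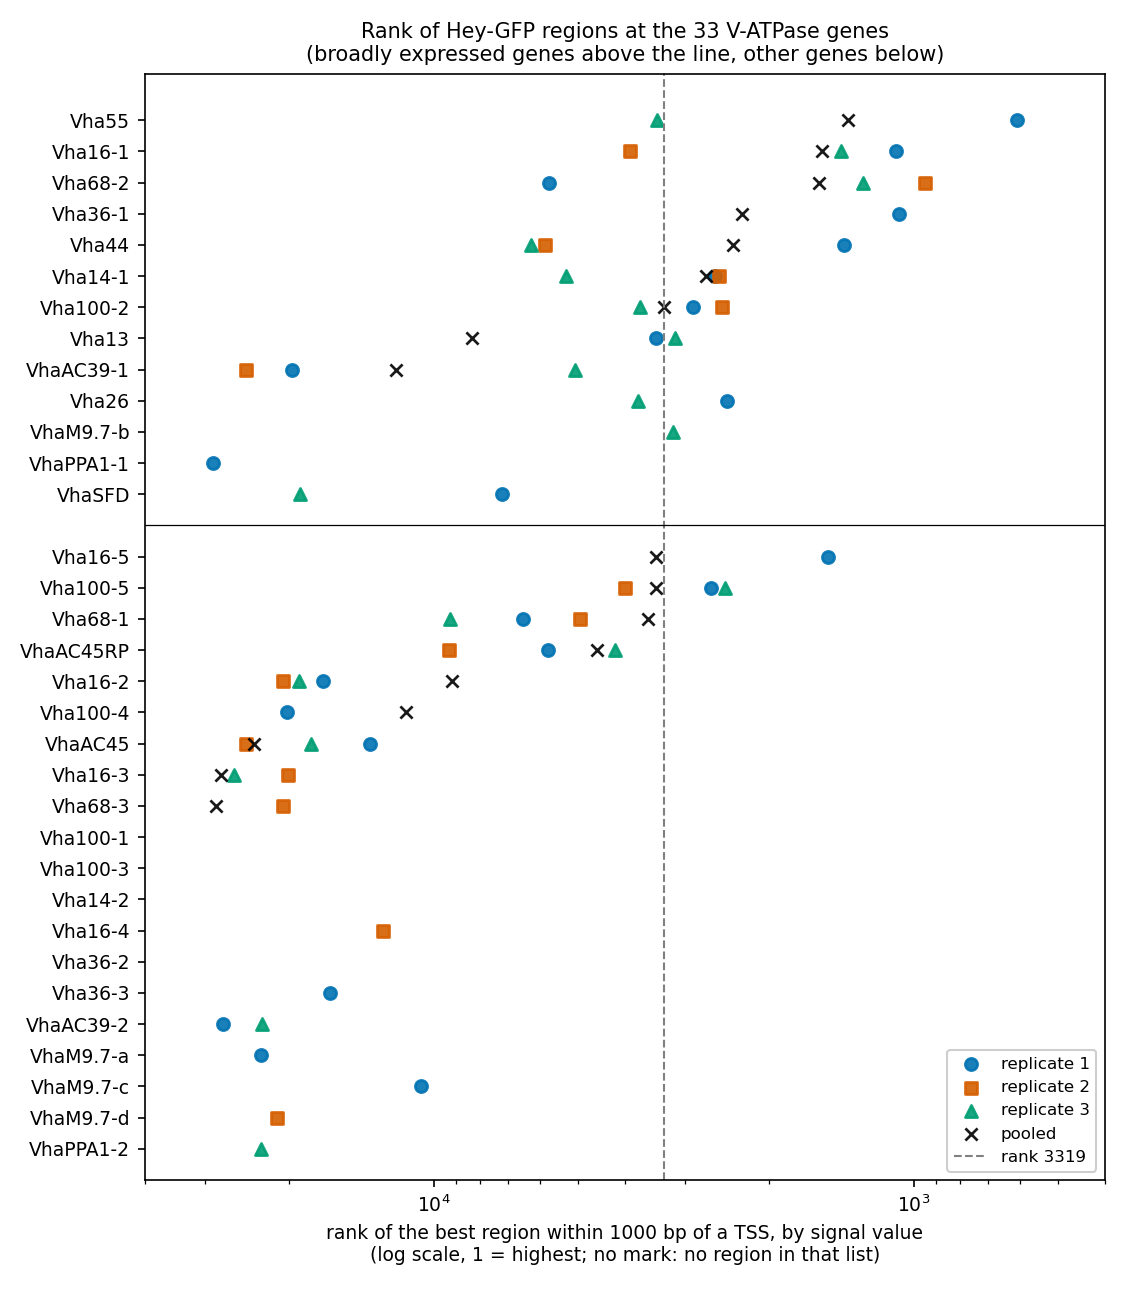
Rank of the highest Hey-GFP region within 1000 bp of a TSS of each of the 33 Vha genes, in each replicate list and in the pooled list (x axis, log scale, rank 1 highest at the right end, 30000 regions per list). The 7 genes whose pooled mark lies at or right of the dashed line at rank 3319 are all in the upper, broadly expressed group, and Vha100-1, Vha100-3, Vha14-2 and Vha36-2 have no mark.

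The share of Vha genes with a high region differed between replicates by more than that of all genes. A share of 33 genes varies more by counting error than a share of 18164 genes, so the spreads are not comparable. High regions lay at 9 Vha genes in replicate 1, 3 in replicate 2 and 5 in replicate 3 (5.67 ± 3.06, SD, n = 3). These are 27.3%, 9.09% and 15.2% of Vha genes, against 12.4%, 9.76% and 10.5% of all genes (10.9% ± 1.34, SD, n = 3). The share was above that of all genes in replicates 1 and 3 and below it in replicate 2. Broadly expressed Vha genes counted 7, 3 and 4 (4.67 ± 2.08, SD, n = 3), and the other Vha genes 2, 0 and 1 (1 ± 1, SD, n = 3), in replicates 1, 2 and 3. The broadly expressed genes, although fewer, had the larger count of high regions in every replicate. That is no independent support for the split, because the group was chosen with earlier results of these data known. With all 30000 regions of each replicate, 23, 15 and 19 Vha genes had a region (69.7%, 45.5% and 57.6%), against 49.8%, 38.7% and 45.7% of all genes. Here the Vha share was the higher one in all 3 replicates, but in replicate 2 the broadly expressed genes (6 of 13, 46.2%) and the others (9 of 20, 45%) had nearly the same share. With a q-value of 0.05 or lower, 16, 5 and 12 Vha genes had a region in replicates 1, 2 and 3 (48.5%, 15.2% and 36.4%), against 37.1%, 11.9% and 21.7% of all genes.

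**Figure D2:**
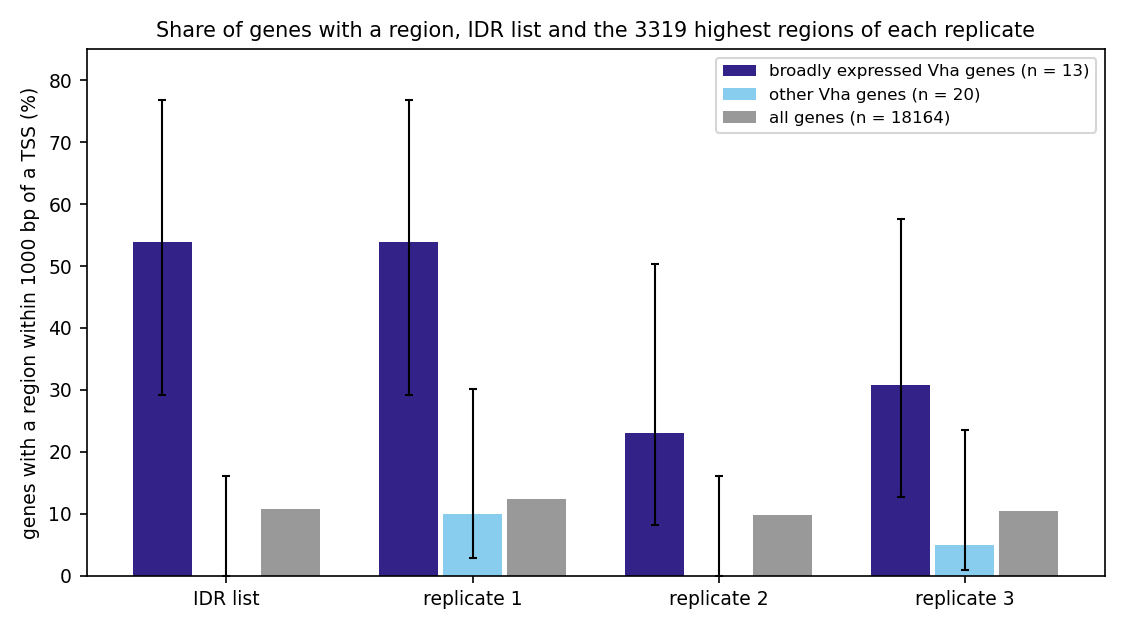
Share of genes with a Hey-GFP region within 1000 bp of a TSS (y axis, percent), for the IDR list and for the 3319 highest regions of each replicate. Bars show the 13 broadly expressed Vha genes, the 20 other Vha genes and all 18164 genes, and error bars are 95% Wilson intervals. The 2 groups of Vha genes were chosen with earlier results of these data known. The broadly expressed genes stand at 53.8% in the IDR list and in replicate 1, at 23.1% in replicate 2 and at 30.8% in replicate 3, against 9.76% to 12.4% of all genes.

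Ranks of the 7 regions lay in the middle and lower parts of the IDR list. The highest, at Vha55, was 1373rd of the IDR list, and 932 genes had a higher region. The median rank over the 7 Vha genes was 2276, against 1438 over the 1938 genes with an IDR region. A rank of 1659 or better was reached by 3 of the 7 Vha genes (42.9%), against 1103 of all 1938 genes (56.9%). The IDR summits at the 7 Vha genes had a median distance to a TSS of 47 bp (range 3 to 892 bp), against 232 bp for all genes with an IDR region. The distance was 150 bp or less at 5 of 7 (71.4%), against 683 of 1938 (35.2%). The replicates did not share this difference. Among high regions the median distance was 290 bp at 9 Vha genes in replicate 1, against 189 bp for all genes. In replicate 2 it was 258 bp at 3 Vha genes, against 250 bp for all genes, and in replicate 3 it was 88 bp at 5 Vha genes, against 241 bp.

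No Vha gene had its IDR region found in all 3 replicates, that is, with a summit within 100 bp among the 3319 highest of each. Of all genes with an IDR region, 41.2% met that limit (799 of 1938). Regions of Vha16-1, Vha68-2 and Vha14-1 were found in 2 replicates and those of Vha55, Vha36-1, Vha44 and Vha100-2 in 1. At any rank within the 30000, the regions of Vha68-2 and Vha14-1 had a summit within 100 bp in all 3 replicates. Only the Vha68-2 region was found among the high regions of both replicates 2 and 3. For support in 1 or 2 replicates the share of all genes was not counted. Those counts therefore describe the Vha genes only.

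Of the V1 genes, which form the ATP-hydrolysing head and the stalks, 5 of 13 had an IDR region (38.5%, against 10.7% of all genes), and these covered 5 of the 8 V1 subunits. Subunits A and B alternate in the head, and A carries the catalytic site. Vha68-2, the broadly expressed A subunit, had an IDR region of signal 177.7 and rank 1572 at chr2L:12973988-12974391. Its summit lay between genes, 132 bp upstream of the nearest TSS of Vha68-2, with no other gene within 1000 bp. The highest region at the gene ranked 5755 in replicate 1, 946 in replicate 2 and 1277 in replicate 3, so this gene was high in both replicates that resembled each other and not in replicate 1. The nearest replicate 1 summit lay 12 bp from the IDR summit, at rank 7541. The A paralogues had no IDR region. Vha68-1 ranked 3572 in the pooled list at 164 bp upstream of its TSS, in a region shared with mTor, the TOR kinase, whose TSS lies 209 bp from the summit. Vha68-1 ranked 6517, 4951 and 9234 in replicates 1, 2 and 3. Vha68-3 ranked 28439 in the pooled list.

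Vha55, the only B gene, had the highest region of the family, with signal 194.3 and rank 1373 at chr3R:12627618-12628021. The summit lay 9 bp downstream of its first TSS in the 5′ UTR, and 211 bp upstream of the TSS of Snx3, a sorting nexin gene on the other side. In replicate 1 a summit 1 bp away ranked 610, the highest rank of any Vha gene in any list. Replicate 2 had no summit within 1000 bp, and in replicate 3 the nearest lay 809 bp away at rank 23740. A high summit at this position was thus present in 1 of 3 replicates. The highest region near any TSS of Vha55 in replicate 3 ranked 3434.

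The central rotor stalk is made of D and F, and C, E, G and H form the outer stalks and regulate the joining of V1 to Vo. Vha36-1 (D) had an IDR region of rank 2276 at chr2R:15541193-15541596, with a summit 40 bp upstream of its TSS and 32 bp upstream of that of CG8187. In replicate 1 a summit at the same base ranked 1075, and neither replicate 2 nor replicate 3 had a region at the gene. Vha44 (C) had rank 2380 at chr2R:16336482-16336885, with its summit 47 bp upstream of the Vha44 TSS. That base is 5′ UTR of the divergent gene Hmgs, which encodes HMG-CoA synthase of the mevalonate pathway and has a TSS 76 bp from the summit. A summit 31 bp away ranked 1399 in replicate 1 and one 20 bp away ranked 5871 in replicate 2, and the nearest in replicate 3 was 290 bp away at rank 8960. Vha14-1 (F) was counted through a summit 892 bp downstream of its TSS, beyond the end of the gene. That region, rank 2712 at chr2R:15678990-15679393, lay nearer to Gmppa, 236 bp from its TSS, and ranked 2598, 2547 and 5314 in the replicates.

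The remaining V1 genes had no IDR region. Vha13 (G) had its pooled summit 202 bp downstream of the TSS at rank 8325, with rank 3449 in replicate 1, none in replicate 2 and rank 3149 in replicate 3. Vha26 (E) had no pooled region but ranked 2454 in replicate 1 and 3757 in replicate 3, at 613 and 631 bp downstream of its TSS. VhaSFD (H) had only weak regions, rank 7195 in replicate 1 and 18982 in replicate 3. Among the isoforms, Vha36-3 had a region of rank 16427 in replicate 1 alone, and Vha36-2 and Vha14-2 had none in any list.

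Of the Vo genes, which form the membrane sector, 2 of 18 had an IDR region (11.1%, about the 10.7% of all genes), covering 2 of the 5 Vo subunits. The sectors differ in make-up, with 8 broadly expressed genes among the 13 V1 genes and 5 among the 18 Vo genes. The difference between the sectors was not tested. The c subunit builds the proton-carrying ring, and Vha16-1, its broadly expressed gene, had rank 1551 and signal 179.7 at chr2R:6632891-6633294. The summit lay 3 bp upstream of its first TSS with no other gene within 1000 bp, the closest of the 7. Summits 3 bp away in replicate 1 and 6 bp away in replicate 3 ranked 1091 and 1419, and replicate 2 had one 126 bp away at rank 3911. Of the c isoforms, Vha16-5 lay just below the IDR limit at pooled rank 3439. Its summit was 287 bp upstream of the TSS but 15 bp from a TSS of CG12299, and a region was present in replicate 1 alone (rank 1507). Vha16-2 and Vha16-3 ranked 9154 and 27807 in the pooled list, and Vha16-4 had only a replicate 2 region of rank 12737.

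The a subunit anchors the outer stalks and forms the path of protons along the ring. Vha100-2, its broadly expressed gene, had the last of the 7 regions, rank 3313 and signal 115.3 at chr3R:18397061-18397464, close to the lowest IDR signal of 115.1. The summit lay 335 bp upstream of the nearest TSS of Vha100-2 and inside the 5′ UTR of Vti1b, a SNARE gene whose TSS was 268 bp away. The highest regions at Vha100-2 ranked 2887, 2504 and 3720 in replicates 1, 2 and 3, at 3 different positions relative to a TSS (547 bp upstream, 258 bp upstream and 43 bp downstream). Vha100-5 lay just outside the IDR list at pooled rank 3447 and signal 112.4, with its summit 90 bp upstream of the TSS. It ranked 2647, 4004 and 2478 in replicates 1, 2 and 3 at 290, 42 and 92 bp upstream of its TSS, and so had a high region in replicates 1 and 3. Vha100-4 ranked 11404 in the pooled list. Vha100-1, the a isoform known from neurons, and Vha100-3 had no region in any list.

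The smaller Vo subunits were largely without high regions. VhaAC39-1, the broadly expressed d subunit that couples the ring to the stalk, had pooled rank 11973 and ranks 19726, 24607 and 5080 in the replicates. VhaM9.7-b, an e subunit, had a single region, 88 bp upstream of its TSS at rank 3171 of replicate 3. VhaPPA1-1, the broadly expressed c-double-prime gene, had one weak region at rank 28820 of replicate 1. The isoforms VhaPPA1-2, VhaAC39-2, VhaM9.7-a, VhaM9.7-c and VhaM9.7-d had no pooled region, and their best ranks in any replicate lay between 10629 and 22960.

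Neither of the 2 accessory genes had an IDR region. VhaAC45RP, related to the accessory protein Ac45, had pooled rank 4565, 108 bp upstream of its TSS, with ranks 5786, 9300 and 4188 in replicates 1, 2 and 3. VhaAC45 ranked 23696. The prorenin receptor gene ATP6AP2, an accessory subunit that the symbol rule leaves out and that is also known as VhaPRR, had no pooled region and ranked 4881 in replicate 1 and 4636 in replicate 3. Mitf, which encodes the fly Mitf/TFE factor, had no region in any list.

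The limit of the IDR list fell between Vha regions of nearly equal signal. Just inside lay Vha100-2 with a signal of 115.3, and just outside Vha16-5, Vha100-5 and Vha68-1 with 112.6, 112.4 and 109.9. The next Vha regions inside the limit, Vha14-1 and Vha44, had higher signals of 130.4 and 141.1. All 6 had the highest −log10 q-value of the list, 3.86, whereas VhaAC45RP, next below, had 3.26 with a signal of 93.07. The 3 genes just outside belong to the 20 other Vha genes, so their absence from the IDR list rests on a small difference in signal.

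**Figure D3:**
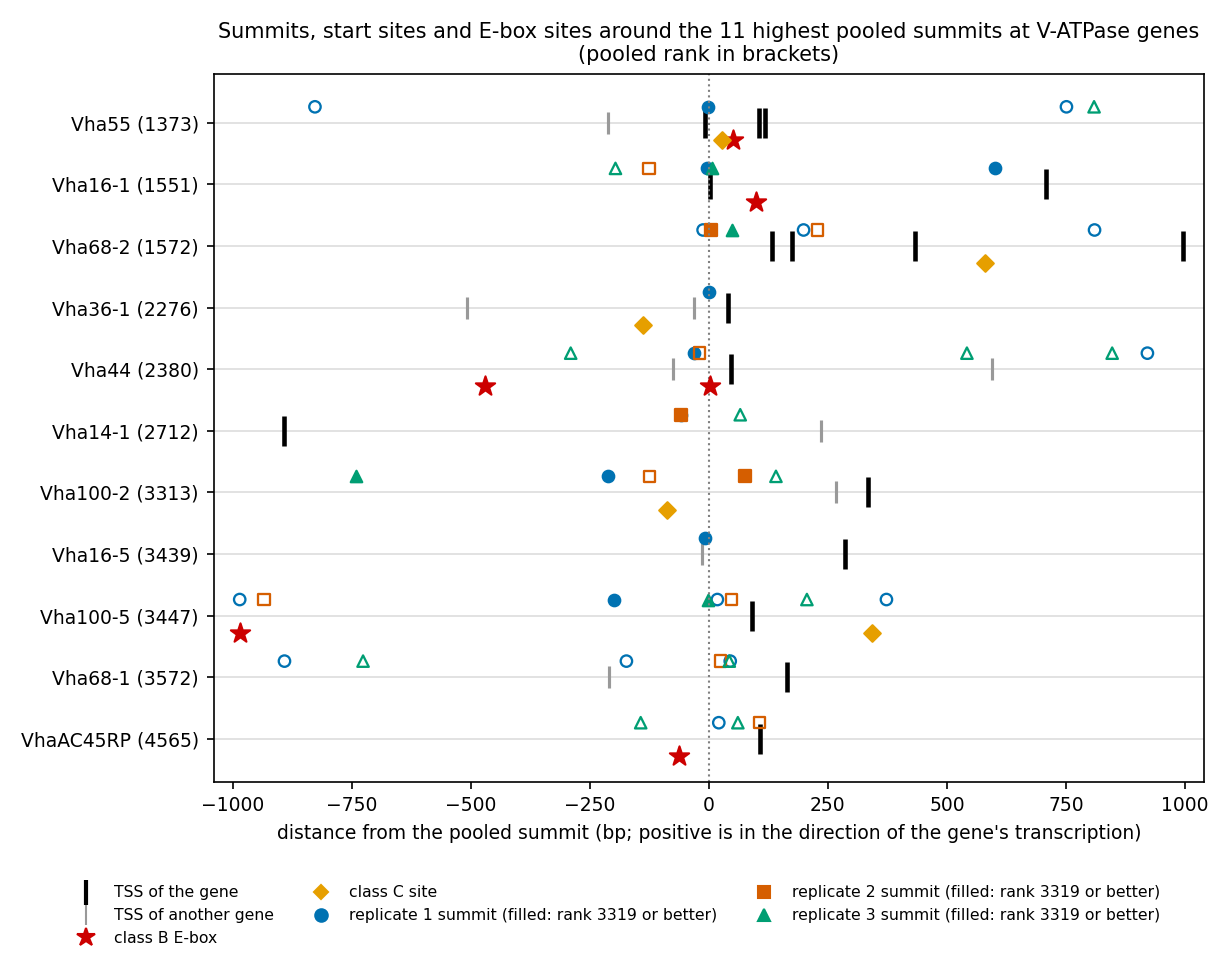
Positions around the 11 highest pooled summits at Vha genes (x axis, distance in bp from the pooled summit, positive along the gene's transcription; pooled rank in brackets). Ticks are TSSs of the gene (black) and of other genes (grey), stars are CACGTG, diamonds are CACGCG, and circles, squares and triangles are summits of replicates 1, 2 and 3, filled at rank 3319 or better. At Vha14-1 the replicate 2 square covers the replicate 1 circle at the same base. Vha55, Vha36-1 and Vha44 have a filled mark of replicate 1 only, and stars near the summit stand at Vha55, Vha44 and VhaAC45RP, and at the edge of 100 bp at Vha16-1.

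Class B cores lay within 100 bp of the summit in 2 of the 7 IDR regions at Vha genes (28.6%), those of Vha55 and Vha44, against 9.71% of the 1606 IDR regions near any TSS and 17.1% of all 3319 IDR regions. Class C cores also lay in 2 of 7 (28.6%), those of Vha55 and Vha100-2, against 13.5% of regions near a TSS and 15% of all. Counts of 2 among 7 are too few to set apart from either share. At Vha44 the centre of the class B core was 2 bp from the summit and 45 bp upstream of the TSS. At Vha55 the class B and class C cores, printed above, were 49 and 27 bp from the summit. The Vha16-1 region had a class B core centred 98 bp from the summit, with its farthest base at 101 bp, just outside the window, since the whole core had to lie inside it. Both class B regions were among the high regions of replicate 1 only. Measured from the replicate 3 summit instead, the Vha16-1 core lay within 100 bp of a high region, of rank 1419.

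The flanked core TCACGTGA, the inner part of the CLEAR palindrome of lysosomal genes, was at the summit of Vha44, 1 of 7 regions (14.3%), against 10 of the 1606 regions near a TSS (0.623%). The full CLEAR palindrome was in none of the 7 and in 2 of the 1606 (0.125%). In promoter windows, from 250 bp upstream to 50 bp downstream of any TSS, the flanked core was present at 2 of 33 Vha genes (6.06%), Vha44 and Vha68-2, against 33 of all 18164 genes (0.182%). Both genes had an IDR region, as did 7 of the 33 genes in all. The Vha16-1 core described above, just outside the window at its summit, was also a flanked one. Within 1000 bp of a TSS the flanked core was present at 3 Vha genes (9.09%), these 2 and Vha16-1, against 231 of all genes (1.27%). All 3 Vha genes had an IDR region, against 36 of the 231. These counts rest on 1 to 3 genes and were not tested. Only at Vha44 did the whole flanked core lie within 100 bp of the IDR summit. The Vha44 region was high in replicate 1 only and is shared with Hmgs. At Vha68-2, however, the core lay in an intron, 907 bp from the nearest pooled summit and 306 bp from the nearest summit of replicate 1, not under the IDR region.

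By sequence alone, 5 of 33 Vha promoter windows held CACGTG (15.2%), those of Vha44, Vha55, Vha68-2, VhaAC45RP and VhaM9.7-d, against 5.10% of all genes. CACGCG was in 2 windows (6.06%), those of Vha36-1 and Vha55, against 8.64% of all genes. Of the 5 Vha genes with CACGTG in the window 3 had an IDR region, and of the 28 without it 4 did. Among protein-coding genes the shares were 19.2% of 744 genes with the core and 11% of 13201 without it. The Vha counts are small, and the difference was not tested. At Vha68-2, 1 of the 3, the core lay 907 bp from the nearest pooled summit and not under the IDR region. Most cores in a wider window lay away from summits. Within 1000 bp of a TSS, 17 of 33 Vha genes (51.5%) held 21 class B cores, against 26.1% of all genes with at least 1 core, and 3 of these cores, at Vha44, Vha55 and VhaAC45RP, lay within 100 bp of a pooled summit. The VhaM9.7-d core printed above was 4883 bp from the nearest pooled summit, and that of Vha14-2 was 10083 bp away.

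Other sequences were searched on both strands within 100 bp of the 7 summits. The E-box CAGCTG was in 2 regions (28.6%, against 11.5% of regions near a TSS), and the TATA box core TATAAA was in 1 (14.3%, against 23%). The motif 1 core GGTCACAC, at Vha68-2, was in 1 (14.3%, against 1.68%). The E-box variants CATATG and likewise CACATG were in 1 region each, and CAAGTG was in none, against 5.98%, 10.5% and 15.9% of regions near a TSS. The DRE core TATCGATA was in none (against 2.74%), nor was the GAGA repeat GAGAGAG (against 7.53%).

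Other gene lists were set beside the V-ATPase genes. IDR regions lay at 6 of 44 genes of lysosomal proteins and V-ATPase regulators (13.6%, interval 6.4 to 26.7%), led by Lamtor3, Sap-r and Atg18a, with ranks of 938, 1140 and 1431. The interval overlapped that of the Vha genes. CACGTG was in no promoter window of these 44 genes, against 5 of 33 Vha genes (15.2%) and 5.10% of all genes. Cytosolic ribosomal protein genes had it at 16 of 93 (17.2%), a share above that of the Vha genes. Mitochondrial ribosomal protein genes had it at 5 of 73 (6.85%) and mitochondrial ATP synthase genes at 1 of 15 (6.67%). The mitochondrial ATP synthase, a rotary ATPase of related build, had 1 of 15 genes with an IDR region (6.67%), ATPsynE at rank 3055. Cytosolic ribosomal protein genes had 55 of 93 (59.1%, interval 49 to 68.6%), led by RpS27, RpL7 and RpL30 with ranks of 42, 82 and 126. Of these 55 genes, 32 had an IDR region found in all 3 replicates, against 0 of 7 Vha genes. Mitochondrial ribosomal protein genes had 9 of 73 (12.3%, interval 6.62 to 21.8%), led by mRpL41, mRpS23 and mRpS10 with ranks of 28, 50 and 54. Of these 9 genes, 6 had an IDR region found in all 3 replicates. In replicates 1, 2 and 3, high regions lay at 9, 3 and 5 Vha genes, against 41, 50 and 64 cytosolic ribosomal genes, so replicate 1 had the most Vha genes and the fewest cytosolic ribosomal genes of the 3.

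**Figure D4:**
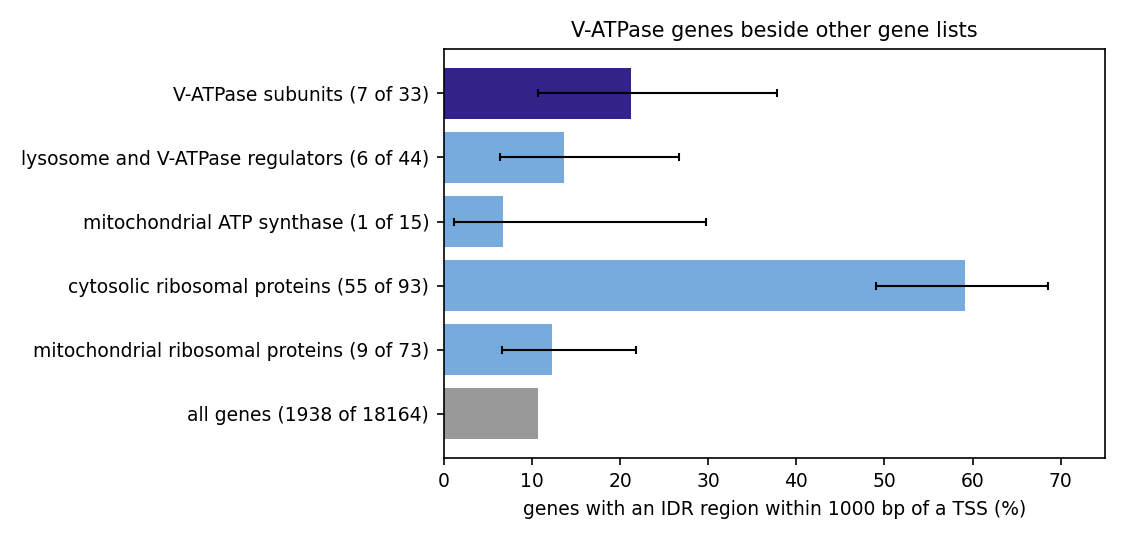
Share of genes at which an IDR summit lay 1000 bp or less from a TSS (x axis, percent), in 5 gene lists and in all genes, with 95% Wilson intervals as error bars and counts in brackets. The 21.2% of V-ATPase genes lies between the 13.6% of lysosomal genes and the 59.1% of cytosolic ribosomal protein genes.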

How the data were processed

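ChIP-seq of Hey-GFP was measured in 3 biological replicates of whole embryos. According to the deposited file listings, each replicate's regions were called from its alignment and a control alignment, the pooled regions from all 3 alignments, and the IDR list from these. The assembly was dm6, per the labels. Sources used here give no aligner, caller, IDR threshold or read depth. The signal value per region is the authors' caller's own, of unstated scale, and served only for ranking within a list. The deposited −log10 q-value had a shared highest value and did not enter the ranking. The summit is an offset the authors give from the region start.

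Genes and TSSs came from Ensembl release 115 of BDGP6.54 (18164 genes and 23998 TSSs without transposable elements) and sequence from the Release 6 genome of RefSeq. No region passed the end of its arm. A gene had a region when a summit lay within 1000 bp of a TSS. Replicate support required a summit within 100 bp among the 3319 highest regions. Motifs were searched on both strands with the whole site within 100 bp of a summit, and in promoter windows of 250 bp upstream to 50 bp downstream of a TSS. TCACGTGA and the CLEAR palindrome both contain CACGTG. Of 49 names in the lysosomal list 47 matched, giving 44 genes. Wilson intervals are at 95%. Python 3.11.15, pandas 2.3.3, numpy 2.4.6, scipy 1.17.1 and matplotlib 3.10.9 were used. Gene assignment was checked against a direct search on sampled IDR regions. Summit matching was checked on shifted IDR summits, and the motif search on sites planted in random sequences.

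All Vha genes are accounted for, those with an IDR region in full. Other genes are named where they share a region with one, as the 3 highest of another list, or as known partners of the pump (ATP6AP2 and Mitf). The Vha genes, the broadly expressed group and the other lists were chosen with earlier results of these data known. The alternatives varied the TSS distance, the rank limit, the q-value limit, the motif window, the overlap rule and the replicates used. Neither alignments nor signal tracks were used.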

Additional observations from a re-analysis of the deposited data

How the results depend on the processing

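Of 50 alternatives over 8 results, 23 moved a count by no more than 1.5 times, or the median distance by less than the spread between replicates, and 27 moved it further. One of them, the limit of 0.05 on pooled q-values, was chosen after seeing the data and gave 13 genes in place of 18. At 2000 bp an IDR region lay at 8 Vha genes, of which 7 were broadly expressed. The 7 genes with an IDR region, all broadly expressed, were 4 when a region counted only for its nearest TSS, 3 with rank 1659 or better, and 0 when regions had to be found in all 3 replicates. Requiring the other 2 replicates after leaving out each in turn gave 1 to 1 gene, and the same 1 to 1 among broadly expressed genes. The mean of 5.67 genes per replicate was 2.67 at the 1659 highest regions and 10.7 at 6638. It was 19 with all regions, 3.67 with the nearest TSS only, and 4 to 7 as a mean over 2 of the replicates. The 2 regions with CACGTG were 3 with a 200 bp window, 1 with a 50 bp window and 1 with rank 1659 or better. Requiring any 2 replicates left 0 of them, which was fixed in advance because both were high in replicate 1 only. The count of 0 found in all 3 replicates was 2 at any rank, and 1 for each choice of 2 required replicates. The 5 promoter windows with CACGTG were 17 at 1000 bp to either side. The 18 genes with a pooled region were 11 among the 6638 highest. The median distance of 47 bp was 43.5 bp at a limit of 500 bp, 89.5 bp at 2000 bp and 9 bp with rank 1659 or better, with an SD of 109 bp between the medians of the 3 replicates. A larger or smaller count follows from each rule's own construction, which keeps more or fewer regions. For several rules the share of all genes was not counted, among them nearest TSS, 500 bp, 6638 regions and 2 required replicates. Counts under those rules do not tell whether the Vha share stayed above that of all genes. No paired analysis was possible because the series has 1 group. Unknown read depth limits any statement that a region is absent.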

Other observations

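Several high regions at Vha genes were shared with a divergent or neighbouring gene. Of the 7 IDR regions, 5 lay within 1000 bp of a TSS of another gene, namely Snx3 at Vha55, CG8187 at Vha36-1, Hmgs at Vha44, Gmppa at Vha14-1 and Vti1b at Vha100-2, and only those of Vha16-1 and Vha68-2 did not. The summit lay farther from the Vha TSS than from the neighbour's TSS at Vha36-1 (40 against 32 bp), Vha14-1 (892 against 236 bp) and Vha100-2 (335 against 268 bp). To which gene such a region belongs cannot be told from the lists. Sharing also occurred elsewhere, since the 1606 IDR regions near any TSS lay at 1938 genes. The share of those regions with more than 1 gene was not counted, so the counts above describe the 7 regions only.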
